A study of Homo sapiens with 12 samples.

Results

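The S100 calcium-binding proteins were followed here as the 10 genes S100A2, S100A4, S100A6, S100A8, S100A9, S100A10, S100A11, S100A14, S100A16 and S100P, in MDA-MB-231 and in MDA-MB-468 cells, with and without knockout (KO) of SMARCA4. The genes were chosen by symbol, and all 10 have a row among the 11529 genes of the expression table. Both cell lines are established human lines of triple-negative breast cancer, and SMARCA4 (BRG1) is a catalytic ATPase of the SWI/SNF complexes that move nucleosomes. The 12 samples form 4 groups of 3: MDA-MB-468 control, MDA-MB-468 SMARCA4 KO, MDA-MB-231 control and MDA-MB-231 SMARCA4 KO. The controls are labelled both control and wild type. The sample descriptions also carry a p number, whose meaning is not stated. It runs from 10 to 12 in both MDA-MB-231 groups, from 26 to 28 in MDA-MB-468 controls and from 25 to 27 in MDA-MB-468 KO samples. In MDA-MB-468 the p number and the KO are thus offset. The study had parental cells as well as cells given a CRISPR/Cas9 vector with a nontargeting guide, and the sources used here do not settle which of these were sequenced. For the KO, cells were infected with a lentiCRISPR-v2 lentivirus that carries a single guide RNA and were then selected with puromycin, so that a KO sample is a mixed population of edited cells rather than a clone. Nothing in the labels says whether the 3 samples of a group came from separate cultures, and the p-values then measure the spread between these samples, which may be technical. The values are levels on the scale log2(FPKM + 1), FPKM being fragments scaled to transcript length and to the mapped fragments of the sample, and a change is a difference on that scale unless FPKM is named.

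S100 proteins are small EF-hand proteins that bind calcium, mostly as dimers, and then dock on a partner protein. Inside the cell S100A10 is the partner of annexin A2, S100A11 binds annexin A1, S100A6 (calcyclin) binds the calcyclin-binding protein CACYBP, S100A4 binds non-muscle myosin and is best known from metastasis models, and S100P binds ezrin. S100A8 and S100A9 form calprotectin, an abundant antimicrobial protein of neutrophils and inflamed epithelium, and released S100 proteins can signal through receptors such as AGER and TLR4. Most S100 genes, including those of the squamous epithelium, lie together in the epidermal differentiation complex.

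On the human genome build GRCh37, 9 of the 10 genes lie within 1.63 Mb of chromosome 1, between bases 151955391 and 153589462, and S100P lies on chromosome 4, between 6695605 and 6698897. Each of the 10 has its own exons, with no exonic base shared with another S100 gene in the annotation. S100A11 has processed pseudogenes, and its values could hold fragments that the counting split between copies.

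The markers of the controls went with the labels, MDA-MB-468 being known as a basal epithelial line and MDA-MB-231 as a mesenchymal-like one. All 5 epithelial markers (EPCAM, CDH1, KRT8, KRT18 and KRT19) and all 4 basal markers (KRT5, KRT14, KRT17 and EGFR) were higher in the MDA-MB-468 controls, and the 3 mesenchymal markers in the table (VIM, FN1 and ZEB1) were lower. Of these, CDH1, KRT5, KRT14 and KRT17 averaged under 1 FPKM in MDA-MB-231 and ZEB1 in MDA-MB-468, so that they entered the table through the line where they are high, and the check rests on EPCAM, KRT8, KRT18, KRT19, EGFR, VIM and FN1. SMARCA4 itself fell in both lines, from a level of 6.61 to 6.68 in MDA-MB-468 controls to 5.35 to 5.61 in the KO samples, and from 6.09 to 6.18 in MDA-MB-231 controls to 4.46 to 4.64. Of the markers, CDH1 (0.54, limma adjusted p = 0.044) and CD14 (1.18, adjusted p = 0.029) were called after KO, both in MDA-MB-231 cells, and none in MDA-MB-468 cells. The CDH1 call was lost whichever sample was left out (adjusted p 0.054 to 0.14), and the CD14 call in 5 of 6 such fits (0.032 to 0.11). ERBB2, the 1 with a row of 3 receptor genes (ESR1, PGR and ERBB2), was not called in any comparison, and none of 5 fibroblast markers has a row. Guide-directed indels need not remove the mRNA, so that the SMARCA4 mRNA level is no measure of the protein. By immunoblot, the study reported a considerable decrease of SMARCA4 protein after KO in both lines. Read depth is not given by the table and is unknown.

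In the controls, both lines held S100A4, S100A6, S100A10 and S100A11 at high levels, and they differed most in a set that MDA-MB-468 cells expressed and MDA-MB-231 cells did not, S100A8, S100A9, S100A14 and S100P. In MDA-MB-468 controls the order of the mean FPKM was S100A9 (3240.05), S100A6 (1569), S100A11 (1320.4), S100A16 (836), S100A8 (796), S100A4 (789.6), S100A14 (718), S100A10 (616), S100A2 (34.3) and S100P (30.6). Within that order, the sample ranges of S100A16, S100A8, S100A4 and S100A14 overlapped from each to the next, as did those of S100A2 and S100P, and the other neighbours were apart. S100A9 stood in place 19 of the 11529 genes in these cells, and S100A6 in place 37.

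In MDA-MB-231 controls, S100A6 came first with a mean of 4079.8 FPKM, in place 13 of all genes. S100A11 (800.03), S100A4 (787) and S100A10 (673) followed with overlapping sample ranges, then S100A16 (301) and S100A2 (99.5). The last 4 were at or near 0, with means of 0.167 FPKM for S100A14, 0.137 for S100P and 0.0333 for S100A8, and with S100A9 listed at 0 in all 3 samples. S100A6 alone made up 60.5% of the summed FPKM of the 10 genes in MDA-MB-231 controls and 15.8% in MDA-MB-468 controls, where S100A9 gave 32.6%. The sum was 9949 ± 383 FPKM in MDA-MB-468 controls and 6741 ± 1305 in MDA-MB-231 controls (SD, n = 3), without overlap. The MDA-MB-468 sum holds S100A9, S100A8 (8.0%), S100A14 (7.2%) and S100P (0.31%), which are in the table only through that line. The filter on low genes thus adds to that sum alone, so that neither the difference of the sums nor their missing overlap compares the lines.

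**Figure D1:**
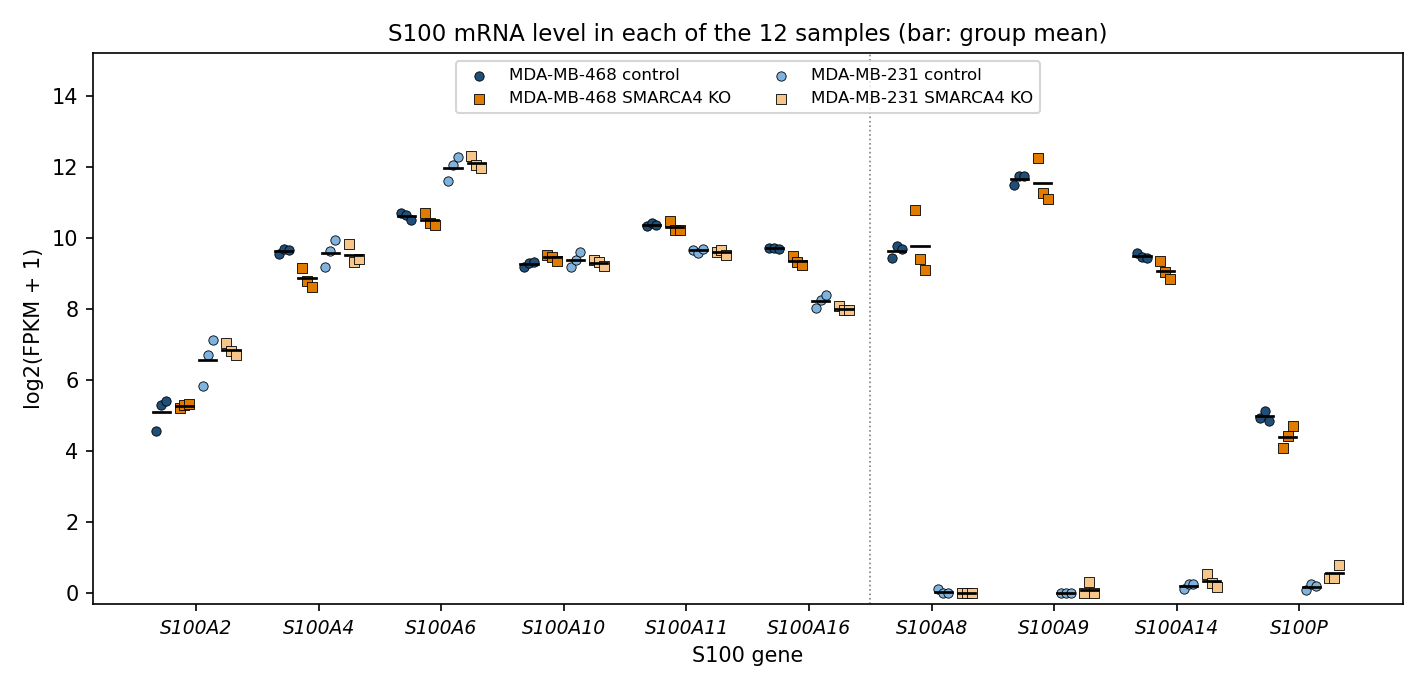
Level of each S100 gene, log2(FPKM + 1), in each of the 12 samples, with 3 points per group and a bar at the group mean. The 4 genes to the right of the dotted line lie between 4.08 and 12.24 in MDA-MB-468 cells and at or below 0.81 in MDA-MB-231 cells, while S100A4, S100A10 and S100A11 lie between 8.62 and 10.48 in both lines.

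S100A4 and S100A10 did not pass the test between the control lines. S100A4, the myosin-binding member, had levels of 9.55, 9.68 and 9.65 in MDA-MB-468 controls and 9.17, 9.64 and 9.95 in MDA-MB-231 controls. The groups overlapped, and the difference was 0.04, with a 95% interval from -0.38 to 0.45 (limma, adjusted p = 0.85). For S100A10, the annexin A2 partner, the difference was -0.12, with an interval from -0.38 to 0.14 (adjusted p = 0.35).

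Of the 6 members that are expressed in both lines, S100A11 and S100A16 were higher in MDA-MB-468 controls and S100A6 and S100A2 were lower. This is 4 of 6 called, 2 in each direction, where 64.1% of all genes were called in this comparison, 32.7% as higher and 31.4% as lower. A call is an adjusted p under 0.05 over all 11529 genes with an absolute log2 change over 0.5. S100A6 had levels of 10.71, 10.63 and 10.50 in MDA-MB-468 controls against 11.60, 12.04 and 12.27 in MDA-MB-231 controls, with no overlap, as for 85.5% of all genes. It was 2.56-fold lower in MDA-MB-468 (difference -1.35, SE 0.16, adjusted p = 9.3e-05). S100A16, a widely expressed member, was 2.79-fold higher (1.48, SE 0.098, adjusted p = 3.0e-06), and S100A11 1.65-fold higher (0.72, SE 0.067, adjusted p = 2.1e-05). S100A2, first described in normal breast epithelium, was 2.76-fold lower (-1.46, SE 0.35, adjusted p = 0.0045), and its controls spread widely, from 4.56 to 5.41 in MDA-MB-468 and from 5.83 to 7.14 in MDA-MB-231.

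S100A8, S100A9, S100A14 and S100P have a place in the table only through MDA-MB-468 cells, since their mean FPKM over the MDA-MB-231 samples is under 1 and the authors removed genes with an average FPKM under 1 over all samples. They therefore had to differ between the lines, and their levels are given as a description. S100A9 had levels of 11.50, 11.74 and 11.74 in MDA-MB-468 controls and was listed at 0 in the 3 MDA-MB-231 controls. S100A8, its partner in calprotectin, had 9.45, 9.77 and 9.68 against 0.14, 0 and 0. The 2 genes kept a near-constant proportion in MDA-MB-468 controls, where S100A9 FPKM was 4.14, 3.92 and 4.17 times S100A8 FPKM. S100A14, an epithelial member, had 9.57, 9.45 and 9.45 against 0.11, 0.28 and 0.28. S100P, which was first found in placenta, was the lowest of the set, with 4.94, 5.13 and 4.86 against 0.08, 0.25 and 0.21.

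Calprotectin is best known from myeloid cells, and of 9 myeloid markers 3 have a row in the table. CD68 was lower in MDA-MB-468 controls (at most 1.55) than in MDA-MB-231 controls (at least 6.55). CD14 was higher, with 5.56 to 5.75 against 0.84 to 1.26. CSF3R had 3.45 to 3.95 against at most 0.04, but it averaged under 1 FPKM in MDA-MB-231 cells. It entered the table through MDA-MB-468, so that the filter on low genes fixed its direction. PTPRC, LYZ, CSF1R, ITGAM, FCN1 and MPO have no row. The summed FPKM of the 3 markers ran from 57.2 to 66.2 in MDA-MB-468 controls and from 93.5 to 102.8 in MDA-MB-231 controls. In bulk samples a change in the share of cells that express a gene and a change in its mRNA per cell cannot be told apart.

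The promoter sequence of the calprotectin pair and of S100P and S100A4 is shown because these are the 4 members whose promoters held the letters TATAAA. The sequences are the 250 bases upstream of the transcription start of each gene, from the RefSeq promoter table (GRCh38.p14), matched without a mismatch to GRCh37 and written 5′ to 3′ on the strand of the gene: S100A8 at chr1:153363550-153363799 (minus strand), S100A9 at chr1:153330080-153330329 (plus strand), S100P at chr4:6695355-6695604 (plus strand) and S100A4 at chr1:153518283-153518532 (minus strand). Capitals mark the letters TATAAA, the core of a TATA box.
S100A8: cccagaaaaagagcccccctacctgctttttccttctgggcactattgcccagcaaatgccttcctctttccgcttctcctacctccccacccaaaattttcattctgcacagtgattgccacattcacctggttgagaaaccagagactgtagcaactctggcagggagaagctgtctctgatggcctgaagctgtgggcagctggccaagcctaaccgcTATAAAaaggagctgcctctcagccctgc
S100A9: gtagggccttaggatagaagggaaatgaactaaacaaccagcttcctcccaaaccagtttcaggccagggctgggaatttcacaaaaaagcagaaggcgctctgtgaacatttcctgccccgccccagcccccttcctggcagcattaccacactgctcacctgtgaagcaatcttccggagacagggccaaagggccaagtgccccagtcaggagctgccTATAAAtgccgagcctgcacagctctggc
S100P: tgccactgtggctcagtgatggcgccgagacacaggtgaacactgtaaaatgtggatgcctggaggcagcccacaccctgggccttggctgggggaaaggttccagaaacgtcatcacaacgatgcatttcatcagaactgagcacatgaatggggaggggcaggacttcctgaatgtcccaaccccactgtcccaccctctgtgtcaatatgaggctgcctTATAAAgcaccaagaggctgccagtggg
S100A4: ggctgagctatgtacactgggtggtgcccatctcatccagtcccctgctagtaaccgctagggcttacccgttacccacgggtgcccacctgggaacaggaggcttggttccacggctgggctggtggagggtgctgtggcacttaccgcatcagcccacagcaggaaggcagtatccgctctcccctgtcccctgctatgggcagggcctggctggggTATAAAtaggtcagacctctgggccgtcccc
All 10 members matched the promoter table, and 5 motifs were searched on both strands. TATAAA was found in these 4 promoters and in none of the other 6, and 10.7% of the 35116 promoters of the table hold it in the same window. Its first base lay 29 bases before the start in S100A8 and S100A9, 28 in S100P and 31 in S100A4. Only the exact letters TATAAA were counted. The windows of S100A6 and S100A14 hold the near variant TATAAG close to the start, which was not counted. The letters of a GC box, GGGCGG, were in the promoters of S100A6 (3 matches), S100A9, S100A10 and S100A11, against 42.6% of all promoters. TGANTCA, the AP-1 motif, was in S100A2 alone of the 10 (6.57% of all), TTGCNNAA, a C/EBP motif, in S100A11 alone (9.05%), and GGAATG, a TEAD motif, in S100A16 alone (11.9%). The window held 24 CpG dinucleotides in S100A6 and S100A10 and 15 in S100A11, against 2 in S100A8, 4 in S100A9, 4 in S100P and 7 in S100A4. Promoters without TATAAA also had low counts, 4 in S100A2 and S100A14 and 1 in S100A16. The median over all promoters was 11.

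Besides its patient data and cisplatin tests, the study asked what loss of SMARCA4 does to gene expression in each line. In MDA-MB-468 cells, 1 of the 10 S100 genes was called in the main fit, which left the samples unpaired. This was S100A4, which fell. Across all genes 2.14% were called in this comparison, 0.815% of all genes as lower. With an unadjusted p and the same limit on the fold change, S100A4 and S100P passed, 2 of 10, beside 5.33% of all genes. S100A4 had 749, 818 and 802 FPKM in the 3 controls and 568, 444 and 394 FPKM in the 3 KO samples. All KO samples lay below all controls, and KO sample 1 was nearest to them. On the log2 scale the levels were 9.55, 9.68 and 9.65 against 9.15, 8.80 and 8.62, so that S100A4 was 1.70-fold lower (change -0.77, SE 0.14, 95% interval from -1.11 to -0.42, limma adjusted p = 0.048). The call stands close to the limit. The adjusted p was 0.082 with a replicate block, which pairs samples by number, and 0.055 with 0.1 in place of 1 added to FPKM. It was over 0.05 when any 1 of the controls, or KO sample 2 or 3, was left out (0.112 to 0.168). In those fits 0 to 27 of all genes were called, against 247 with all samples. SMARCA4 itself was not called without control 2, control 3 or KO sample 2 (adjusted p 0.070, 0.057 and 0.075), so that this loss is not particular to S100A4. Without KO sample 1 the change was -0.92 (adjusted p = 0.017), and with all 12 samples in 1 fit the adjusted p was 0.026.

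**Figure D2:**
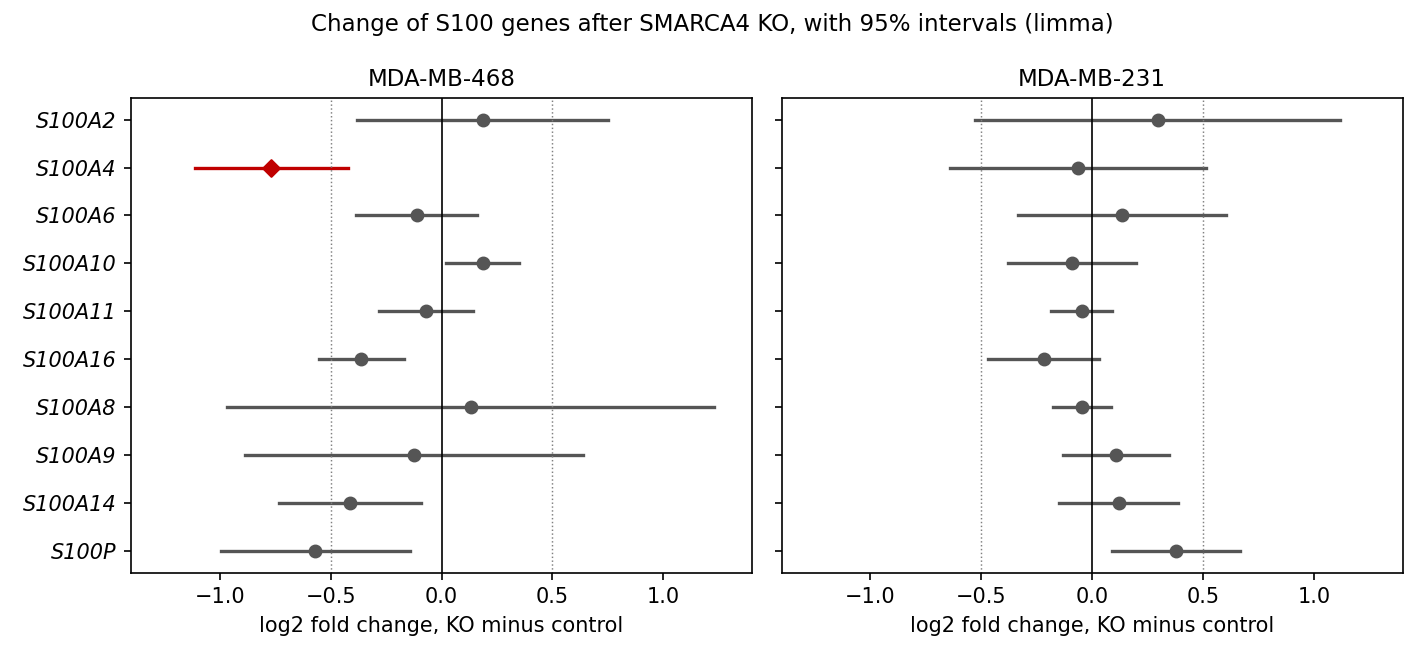
Change of each S100 gene after SMARCA4 KO on the log2(FPKM + 1) scale, as a point with its 95% interval from limma, in MDA-MB-468 cells (left) and MDA-MB-231 cells (right). S100A4 at -0.77 in MDA-MB-468 cells, drawn as a diamond, is the single called change, and the dotted lines stand at the fold change limit of 0.5.

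Besides S100A4, 3 members had all KO samples below all controls in MDA-MB-468 cells without passing the test, and 1 had them all above. Non-overlapping groups were found for 31% of all genes, 13.5% with the KO samples lower. S100P, the ezrin-binding member, had 29.8, 33.9 and 28.1 FPKM in controls against 15.9, 20.6 and 25.3 FPKM in KO samples (change -0.57, SE 0.17, adjusted p = 0.12), and KO sample 1 was the lowest. It passed in the fit of all 12 samples (adjusted p = 0.031). S100A14 had 756, 700.2 and 696 FPKM against 646, 526 and 459 FPKM (-0.41, SE 0.13, adjusted p = 0.13). S100A16 had 842, 836 and 829 FPKM against 724, 636 and 598 FPKM (-0.36, SE 0.078, adjusted p = 0.064). S100A14 and S100A16, which are neighbours on chromosome 1, ranked the KO samples as S100A4 did, with KO sample 1 the highest and KO sample 3 the lowest. S100A10 had 582, 625 and 641 FPKM in controls against 738, 707 and 657 FPKM, the 1 member with all KO samples higher, as for 17.5% of all genes (0.18, SE 0.066, adjusted p = 0.16).

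The remaining members gave intervals of unequal width. S100A11 changed by -0.07 (95% interval from -0.28 to 0.14), S100A6 by -0.11 (-0.38 to 0.16) and S100A2 by 0.19 (-0.38 to 0.75). The median change of the 10 members was -0.12, beside 0.02 over all genes.

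The calprotectin genes split the 3 KO samples of MDA-MB-468. KO sample 1, which stood apart, carries p number 25, a number that no control has. Whether this bears on its levels was not tested. S100A8 had 697, 873 and 817 FPKM in controls, 1763 FPKM in KO sample 1, and 676 and 548 FPKM in KO samples 2 and 3. KO sample 1 was thus the highest of the 6 and the other KO samples the lowest. S100A9 had 2886, 3421 and 3413 FPKM in controls against 4827, 2473 and 2176 FPKM, in the same order. The group changes were 0.13 for S100A8 (SE 0.44, adjusted p = 0.89) and -0.13 for S100A9 (SE 0.31, adjusted p = 0.84), with 95% intervals from -0.97 to 1.23 and from -0.89 to 0.64. The ratio of S100A9 to S100A8 FPKM was 2.74 in KO sample 1, below every control, and 3.66 and 3.97 in the others.

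S100A7 (psoriasin), an antimicrobial protein of the skin encoded next to this pair, showed the same order, with 998, 1375 and 1225 FPKM in controls and 1693, 631 and 505 FPKM in the KO samples. Its near copy S100A7A had 12, 16.04 and 12.98 FPKM against 16.08, 6.82 and 5.94 FPKM, and how fragments were divided between these similar genes is uncertain. S100A6 and S100A11 also had KO sample 1 above and KO samples 2 and 3 below all controls, by smaller margins. In all, 298 genes (2.58%) had this pattern, which was looked for after the values of S100A8 and S100A9 had been seen.

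One of the 3 myeloid markers in the table showed this order. CD14 had levels of 5.67, 5.75 and 5.56 in controls and 6.004, 4.82 and 4.44 in KO samples 1 to 3. CSF3R had 3.95, 3.45 and 3.45 in controls and 3.76, 3.05 and 2.91 in the KO samples, so that KO sample 1 lay within the controls. CD68 had 1.55, 1.53 and 1.13 in controls and 1.66, 1.72 and 1.76 in the KO samples, with KO sample 1 the lowest of the 3. The summed FPKM of the 3 myeloid markers ran from 29.7 to 77.9 in the KO samples. IVL (involucrin), a squamous marker of the same chromosome 1 region, had 3.002, 3.02 and 3.17 in the KO samples, all under the controls at 3.38 to 3.70, so that it did not follow the order. The part of these markers in the levels of S100A7, S100A8 and S100A9 was not tested. The summed FPKM of the 10 S100 genes was 12419 in KO sample 1, above every control (9534 to 10288), and 8082 and 7393 in the others, below every control.

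**Figure D3:**
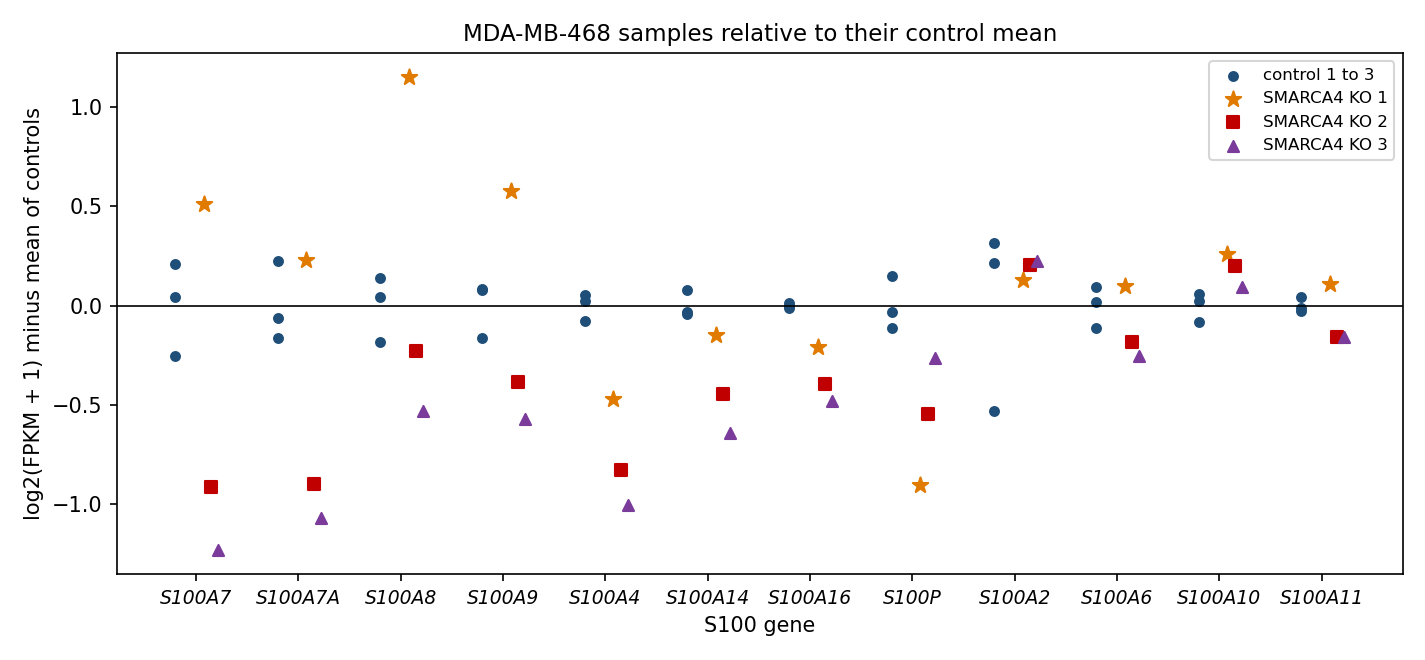
Level of 12 S100 genes in each MDA-MB-468 sample as the log2(FPKM + 1) difference from the mean of the 3 controls, with controls as circles and each KO sample by its own symbol. KO sample 1 (star) stands above the controls for S100A7, S100A7A, S100A8 and S100A9, where KO samples 2 and 3 stand below them, and all 3 KO samples stand below the controls for S100A4, S100A14, S100A16 and S100P.

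Without KO sample 1, the changes in MDA-MB-468 cells were -0.38 for S100A8 (adjusted p = 0.17), -0.48 for S100A9 (0.076), -1.07 for S100A7 (0.041) and -0.98 for S100A7A (0.034). S100A14 then changed by -0.54 (adjusted p = 0.038) and S100A16 by -0.44 (0.024), so that 2 of the 10 members were called, S100A4 and S100A14. In the same fit 474 of all genes (4.11%) were called, against 247 with all samples.

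In MDA-MB-231 cells none of the 10 S100 genes was called, where 3.7% of all genes were. With an unadjusted p under 0.05 and the same limit on the fold change, the count was also 0, beside 5.32% of all genes. S100P was the 1 member whose groups did not overlap, as for 36% of all genes, 16.6% with the KO samples higher. It had 0.06, 0.19 and 0.16 FPKM in controls and 0.36, 0.35 and 0.75 FPKM in KO samples (change 0.38, SE 0.12, adjusted p = 0.093), levels close to 0 throughout. S100A4 had 575, 798 and 989 FPKM in controls and 911, 639 and 683 FPKM in KO samples, with full overlap (-0.06, 95% interval from -0.64 to 0.51). The narrowest interval was that of S100A8, whose KO samples were all listed at 0. Of the expressed members, S100A11 had the narrowest, from -0.19 to 0.09, and S100A2 the widest, from -0.53 to 1.12. S100A9 was listed at 0 in 2 KO samples and had 0.25 FPKM in the other, and S100A14 stayed at or under 0.46 FPKM. The median change over the 10 members was 0.03, beside -0.01 over all genes.

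Whether KO changed a gene differently in the cell lines was tested as the difference of the changes, MDA-MB-468 minus MDA-MB-231, in 1 fit of the 12 samples. Of the 10 members 1 was called, S100P, beside 8.71% of all genes, 4.41% as lower. With an unadjusted p S100A4 and S100A14 passed too, 3 of 10 beside 11.1% of all genes. S100P went down in each of the 3 MDA-MB-468 KO samples and up in each of the 3 MDA-MB-231 KO samples relative to all controls, with changes of -0.57 and 0.38 and a difference of -0.95 (SE 0.21, 95% interval from -1.41 to -0.49, limma adjusted p = 0.015). The call held in all alternatives run, among them the replicate block (adjusted p = 0.025) and each sample left out (0.0064 to 0.037). Its MDA-MB-231 arm rests on values under 1 FPKM, and the number added before the logarithm sets its size: with 0.1 in place of 1 the difference was -1.88. Neither change of S100P was called within its own line. S100P passed the filter on low genes only through MDA-MB-468 cells. The alternative limited to a mean log2 level over 2 kept it through the same cells and does not test the MDA-MB-231 arm.

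For S100A4 the difference was -0.70 (SE 0.27, 95% interval from -1.30 to -0.11, adjusted p = 0.10). The fall of S100A4 in MDA-MB-468 cells was therefore not shown to differ from its change in MDA-MB-231 cells. S100A14 gave -0.53 (SE 0.17, adjusted p = 0.061). Without MDA-MB-468 KO sample 1, S100A14 (-0.66, adjusted p = 0.015) and S100A9 (-0.58, adjusted p = 0.027) were called besides S100P, 3 of the 10 beside 10.3% of all genes. All 3 lie at or near 0 in MDA-MB-231 cells, where a fall could not be seen, so that for S100A9 and S100A14 the difference mostly restates the MDA-MB-468 change.

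**Figure D4:**
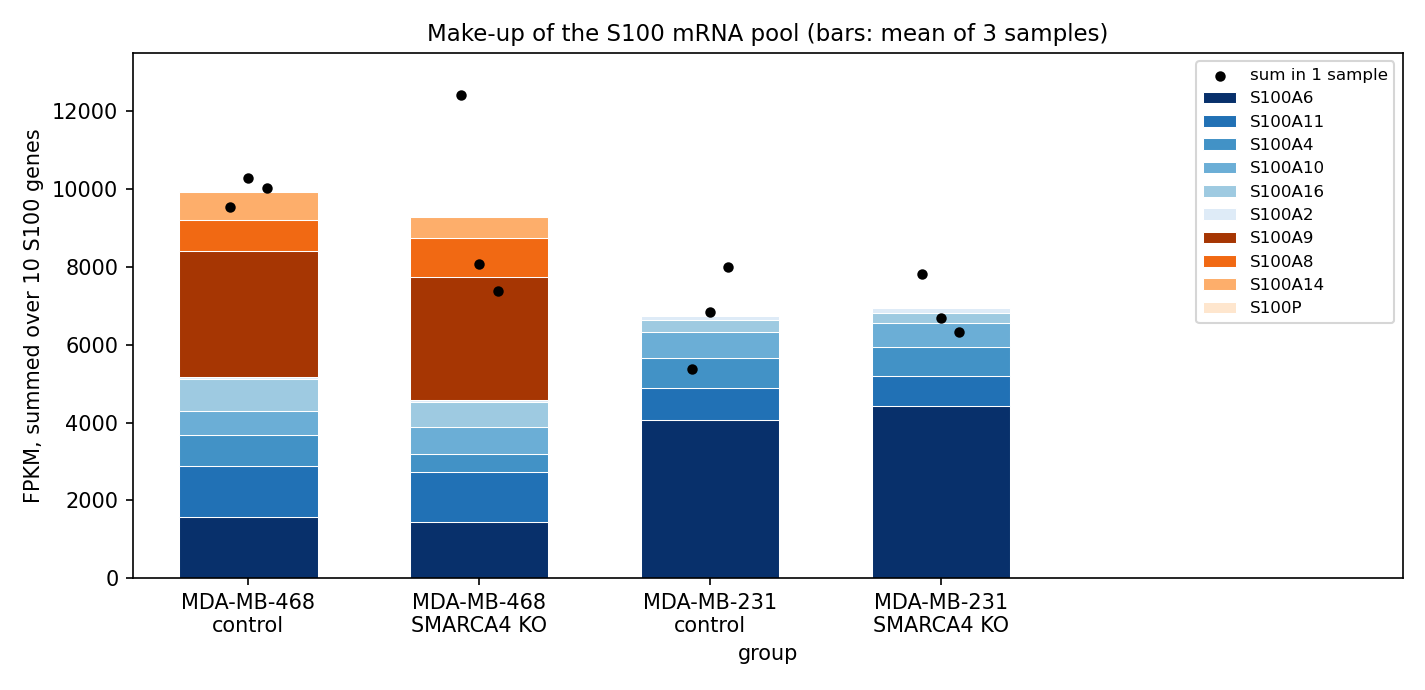
FPKM summed over the 10 S100 genes, as bars of group means stacked by gene (n = 3) with the sum in each sample as a point. S100A6 makes up most of each MDA-MB-231 bar, and S100A9, S100A8 and S100A14 are visible in the MDA-MB-468 bars alone, where the KO sums run from 7393 to 12419.

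By mean FPKM the first 3 places among the S100 genes were taken by the same genes, in the same order, in KO and control cells of each line. S100A9 (3159) and S100A6 (1457) led in MDA-MB-468 KO cells, and S100A6 (4420.0) and S100A11 (775) led in MDA-MB-231 KO cells. In MDA-MB-231 control and KO cells the sample ranges of S100A11, S100A4 and S100A10 overlapped from each to the next. Of the leading places there, only that of S100A6 was set apart. S100A4 moved from place 6 of the 10 in MDA-MB-468 controls to place 8 in the KO cells, with 468.5 ± 90.0 FPKM against 789.6 ± 36.1 (SD, n = 3), though in the KO cells the ranges of all neighbours from S100A6 down to S100A4 overlapped. The summed FPKM was 9298 ± 2725 in MDA-MB-468 KO cells and 6941 ± 777 in MDA-MB-231 KO cells (SD, n = 3).

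The 3 genes whose profile over the 12 samples was nearest to that of S100A4, by the root mean square difference of centred log2 levels, were BTG1 (0.20), TBC1D9 (0.20) and BZRAP1 (0.22), where S100A4 itself had a root mean square deviation of 0.39. Their changes in MDA-MB-468 KO cells were -0.58, -0.63 and -0.88. The measure uses the same samples as these changes.

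Among 10 other S100 genes, 5 have a row in the table (S100A3, S100A5, S100A7, S100A7A and S100A13) and none was called after KO in either line or between the lines. S100A7 and S100A7A, listed at 0 in all 6 MDA-MB-231 samples, owe their place in the table to MDA-MB-468 and had to differ between the control lines. Of the other 3, 2 were called there, beside 64.1% of all genes. S100A13 was higher in MDA-MB-468 controls (1.07) and S100A5 lower (-1.56), while S100A3, which lies within the span of the S100A4 gene, differed by -0.46 (adjusted p = 0.071). The exons of S100A13 overlap those of S100A1 on the other strand by 235 bases.

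The 1.63 Mb of the members hold 61 protein-coding genes, of which 16 are in the table together with 1 antisense RNA, and 4 of these 17 are no S100 genes. None of the 4 was called after KO in either line. Between the control lines IVL (involucrin, listed at 0 in MDA-MB-231) and TCHH (trichohyalin, 3.41) were higher in MDA-MB-468, and FLG (filaggrin, -1.76) and its antisense RNA FLG-AS1 (-1.76) were lower. Each of the 4 averaged under 1 FPKM in the line where it is low, so that the filter on low genes fixed these directions.

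None of the annexin, scaffold or receptor partners of the S100 proteins was called after KO in either line, where 2.14% (MDA-MB-468) and 3.7% (MDA-MB-231) of all genes were. Of 5 annexins 4 were lower in the MDA-MB-468 controls, beside 64.1% of all genes called in either direction: ANXA1 (-0.77), ANXA2 (-0.61), ANXA5 (-1.05) and ANXA6 (-3.34). ANXA6, a membrane-binding annexin, changed by -0.99 in MDA-MB-468 KO cells (adjusted p = 0.066). Of 6 cytoskeletal and scaffold partners none was called after KO, and 1, AHNAK, a giant scaffold that binds S100A10 with annexin A2, differed between the lines in its KO change (-0.57, adjusted p = 0.038). That call was lost with the replicate block (adjusted p = 0.069) and in 8 of 12 fits with 1 sample left out (up to 0.087). EZR, the partner of S100P, changed by -0.07 in MDA-MB-468 cells and by 0.06 in the other line. MYH9, the myosin that S100A4 binds, changed by 0.40 (adjusted p = 0.16) and by 0.26 (adjusted p = 0.048, under the fold change limit).

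The intracellular partners CACYBP, SUGT1 and MDM2 were not called in any comparison. Of 3 receptors of released S100 proteins, BSG (basigin) has a row and was not called after KO, with changes of -0.05 and 0.07. Of the 3 genes of plasminogen activation, a process that S100A10 with annexin A2 assists at the cell surface, PLAU (urokinase) rose in MDA-MB-468 KO cells (0.55, adjusted p = 0.034). This call was lost with the replicate block (0.063) and in 5 of 6 fits with 1 sample left out (up to 0.14). In those 5 fits 0 to 27 of all genes were called. The KO change of PLAU differed between the lines (0.74, limma adjusted p = 0.0021). PLAU had 1.35 to 1.67 FPKM in MDA-MB-468 controls and 2.34 to 2.91 FPKM in the KO samples. At such levels the size of both results depends on the number added before the logarithm. Over the alternatives with all samples the change ran from 0.55 to 0.79 and the difference from 0.70 to 0.98. PLAT and PLAUR were not called after KO. All 3 were lower in the MDA-MB-468 controls, beside 31.4% of all genes called lower. The differences were -7.17 (PLAT), -6.57 (PLAU) and -2.04 (PLAUR). PLAT was under 1 FPKM in MDA-MB-468 and is in the table through the other line. PLAU did not reach the SD limit within MDA-MB-468 cells, so that only PLAUR passed the filter in each line alone.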

How the data were processed

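RNA was sequenced from TruSeq stranded mRNA libraries of the 12 samples. Per the study's methods, Trimmomatic was used for trimming, STAR (two-pass) for alignment to hg19 and RSEM for FPKM. The authors kept genes whose FPKM had both a mean and an SD of at least 1, which left 11529, and deposited log2 values of FPKM + 1. Because of that filter a gene expressed in a single line must differ between lines. FPKM was recovered from the deposited log2 values. Counts are not used here, so no interval from depth was computed.

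Groups come from the sample labels. Each comparison was fitted on all genes in R 4.3.3 by limma 3.58.1 (lmFit, eBayes, no trend), with Benjamini-Hochberg adjustment over 11529 genes, and calls needed an absolute log2 fold change over 0.5 at an adjusted p under 0.05. KO was compared with control within each line (6 samples), the difference of changes in all 12, and the control lines with each other. The fit was tested on simulated data. Replicate numbers in the titles were taken to pair the MDA-MB-468 samples, because the deviations of same-numbered samples correlated (0.25, 0.16 and 0.12), and not the MDA-MB-231 samples (-0.05, 0.07 and -0.11). For MDA-MB-468 samples that share a p number the correlations were -0.23 (26) and 0.03 (27). The main fits nevertheless left all samples unpaired, and pairing entered only as the replicate block. With that block S100A4 was not called in MDA-MB-468 (adjusted p = 0.082), beside 241 of all genes called. Alternatives were a pseudocount of 0.1, a mean log2 level over 2, scaling to the 75th percentile, an intensity trend, an unadjusted p, 1 fit of 12 samples, replicate blocks and leaving out each sample. Every S100 gene on the list, SMARCA4, called genes of the partner and marker lists, genes of the S100 region on chromosome 1 and the 3 nearest profiles are named. EZR, MYH9, BSG, ANXA6, IVL and CSF3R are named with values although not called in a KO comparison, and IVL, CD14 and CSF3R were looked up per sample after the levels of S100A8 were seen. The S100 genes and all lists were chosen with earlier results of these data known. Positions are from the GENCODE annotation of GRCh37. The result of 1 gene of the partner lists is not reported here.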

Additional observations from a re-analysis of the deposited data

Results flagged for a closer look

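Of 51 genes looked at (the S100 genes, SMARCA4 and the lists), 11 (21.6%) had a KO change that differed between the cell lines by limma's interaction test, with an adjusted p under 0.05 and no limit on the fold change. By the same rule 1699 of all genes (14.7%) differed. S100P differed by -0.95 (adjusted p = 0.015), the 1 S100 gene among them. ANXA2, the annexin that S100A10 binds, differed by 0.30 (adjusted p = 0.047), with a KO change of 0.08 in MDA-MB-468 cells against -0.22 in the other line, under the fold change limit. AHNAK differed by -0.57 (adjusted p = 0.038), with changes of -0.24 and 0.33. With the replicate block the adjusted p was 0.069 for AHNAK and 0.091 for ANXA2, and the other 9 stayed under 0.05. With 1 sample left out, adjusted p was over 0.05 in 10 of 12 fits for ANXA2, 8 for AHNAK, 9 for SUGT1, 8 for ERBB2, 6 for CD14 and 6 for SMARCA4, and in none for S100P, CACYBP, PLAU, CDH1 and VIM. In MDA-MB-231 cells CDH1 had 0.12 to 0.41 FPKM in controls and 0.62 to 1.01 FPKM in KO samples. The size of its difference, like that of S100P, therefore depends on the number added before the logarithm. The same holds for PLAU and VIM, with 1.35 to 1.67 and 2.04 to 3.66 FPKM in MDA-MB-468 controls. It also holds for CD14, with 0.79 to 1.39 FPKM in MDA-MB-231 controls. The S100A6 partners CACYBP and SUGT1 differed by 0.47 (adjusted p = 0.016) and 0.37 (adjusted p = 0.044), likewise under the limit. PLAU differed by 0.74 (adjusted p = 0.0021), with changes of 0.55 and -0.19. Among the markers CDH1 differed by -0.76, VIM by 0.81, ERBB2 by -0.42 and CD14 by -1.75, and SMARCA4 itself differed by 0.41. Groups of 3 samples are too small for a test of single outlying samples.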

How the results depend on the processing

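The count of S100 genes called after KO in MDA-MB-468 cells was 1, beside 247 of all genes. It became 0 with a pseudocount of 0.1 (268 of all genes called) and with the replicate block. With a block by the p number of the descriptions it was also 0, but there no gene at all was called, SMARCA4 included (limma adjusted p = 0.14). It was 2 with an unadjusted p (614 of all genes) and in 1 fit of 12 samples (537 of all genes). Leaving out 1 sample gave 0 to 2, beside 0 to 474 of all genes. For the difference between the lines the count was 1 (1004 of all genes) and 3 with an unadjusted p (1285 of all genes). With 1 sample left out it was 1 to 3, beside 724 to 1190 of all genes. The count of 0 in MDA-MB-231 did not move in any alternative. Between the control lines the count was 8 throughout, beside 64.1% of all genes, but 4 of these (S100A8, S100A9, S100A14 and S100P) were fixed by the filter on low genes. With the replicate block 241 of all genes were called in MDA-MB-468 cells, and 0 in the MDA-MB-231 cells, where the numbers gave no pairing. Scaling to the 75th percentile changed the genes called higher in the difference between the lines from 495 of 1004 to 394, and turned the S100A13 difference to -0.00028.

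With 1 sample left out, uncalled changes crossed 0 as follows. In MDA-MB-468 they ran from -0.079 to 0.34 for S100A2, -0.24 to 0.046 for S100A13, -0.27 to 0.049 for S100A3, -0.38 to 0.46 for S100A8, -0.48 to 0.10 for S100A9 and -0.021 to 0.41 for S100A5. In MDA-MB-231 they ran from -0.067 to 0.58 for S100A2, -0.052 to 0.28 for S100A6, -0.27 to 0.12 for S100A4, -0.19 to 0.017 for S100A10 and -0.28 to 0.064 for S100A3. The difference between the lines ran from -0.40 to 0.25 for S100A2, -0.20 to 0.18 for S100A3, -0.11 to 0.022 for S100A11, -0.11 to 0.19 for S100A13 and -0.33 to 0.51 for S100A8. Between control lines S100A4 ran from -0.17 to 0.22. The cause was not tested. Depth is unknown, and values near or under 1 FPKM depend on the number added before the logarithm. Among them are S100P, S100A8, S100A9, S100A14, CDH1 and CD14 in MDA-MB-231, and PLAU in MDA-MB-468.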
